A study of Mytilus coruscus with 2 samples.

Results

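Heat shock proteins and their partners keep the other proteins of a cell folded. HSP70 binds unfolded stretches and is driven by DnaJ proteins, which start its ATP cycle, and by HSP110 proteins, which reset it. Chaperonins fold proteins inside a closed chamber, disulfide isomerases and calreticulin act in the endoplasmic reticulum, and heat shock factor switches many of these genes on when proteins unfold. Nrf2 is the transcription factor that animals use against oxidative stress, which also damages protein structure.

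The genes described here are those whose Swiss-Prot or KEGG name held at least 1 of 12 words for these proteins, among them heat shock, DnaJ, chaperone, disulfide isomerase, peptidyl-prolyl, calreticulin and T-complex protein. The words found 31 of 3465 Nrf2 peaks, which lay nearest to 25 of 2548 genes. The data are ChIP-seq of digestive gland cells from untreated *M. coruscus*, a marine mussel, with 1 ChIP library made with an antibody raised for the study against Nrf2 and 1 input library, chromatin of the same preparation sequenced without the antibody. The labels and the peak table give no replicates, the number of mussels behind the libraries is not given in the sources used here, and the peaks carry no expression values by which the tissue could be checked. Each peak of the authors' table has a pileup, the number of ChIP fragments over its summit, and a fold enrichment, how many times the pileup exceeds the local input background, with 1 added to both. All values for single peaks are the authors'. Intervals in brackets are 95% exact Poisson intervals of the pileup carried over to the fold with the background held fixed. They cover counting error only and say nothing of how another animal or library would vary.

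The names held up for most of the genes. InterPro, a database of protein domains that the rule did not use, named a domain of the right family in 18 of the 25 genes, such as the J domain of DnaJ proteins or the ATPase of HSP70, and none in the other 7. In 3 genes InterPro named a reverse transcriptase, the enzyme of retrotransposons: 2 genes that KEGG calls DNAJC13 and Swiss-Prot calls a transposon polymerase, and the gene matching TMX3, which holds a thioredoxin-like domain as well. By family, 9 genes with 11 peaks were HSP70 or HSP110 genes and 7 genes with 8 peaks had DnaJ names, of which 4 genes have a J domain in InterPro and 3 do not. The chaperonins had 2 genes with 2 peaks, chaperones of other cargo 2 genes with 2 peaks, and disulfide isomerases 1 gene with 4 peaks. Small heat shock proteins, peptidyl-prolyl isomerases, calreticulin and heat shock factors each had 1 gene with 1 peak. No peak of the list lay nearest to a gene named as HSP90, prefoldin or a BAG protein.

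As a list, these genes had peaks of ordinary height. The median fold enrichment was 4.68 over the 31 peaks (95% interval of the median from order statistics 4.03 to 5.05) and 4.63 over all 3465 peaks, and the median pileup was 17 and 16 fragments. A fold of at least 5 was reached by 12 of the 31 peaks, or 38.7%, beside 39.8% of all peaks. The −log10 q was at least 3 for 24 of the 31, or 77.4%, beside 74.2% of all peaks. The folds ran from 2.32 at a gene matching calreticulin to 9.27 at a gene matching DNAJC27. For 24 of the 31 peaks the interval of the fold included the median of all peaks. This count was not made over all peaks, so whether it is usual was not examined and nothing is read from it. The interval lay above that median at DNAJC27, TCP1 and 1 peak of TMX3. It lay below the median at calreticulin, PPIL2, 1 peak of DNAJB6 and another peak of TMX3.

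**Figure D1:**
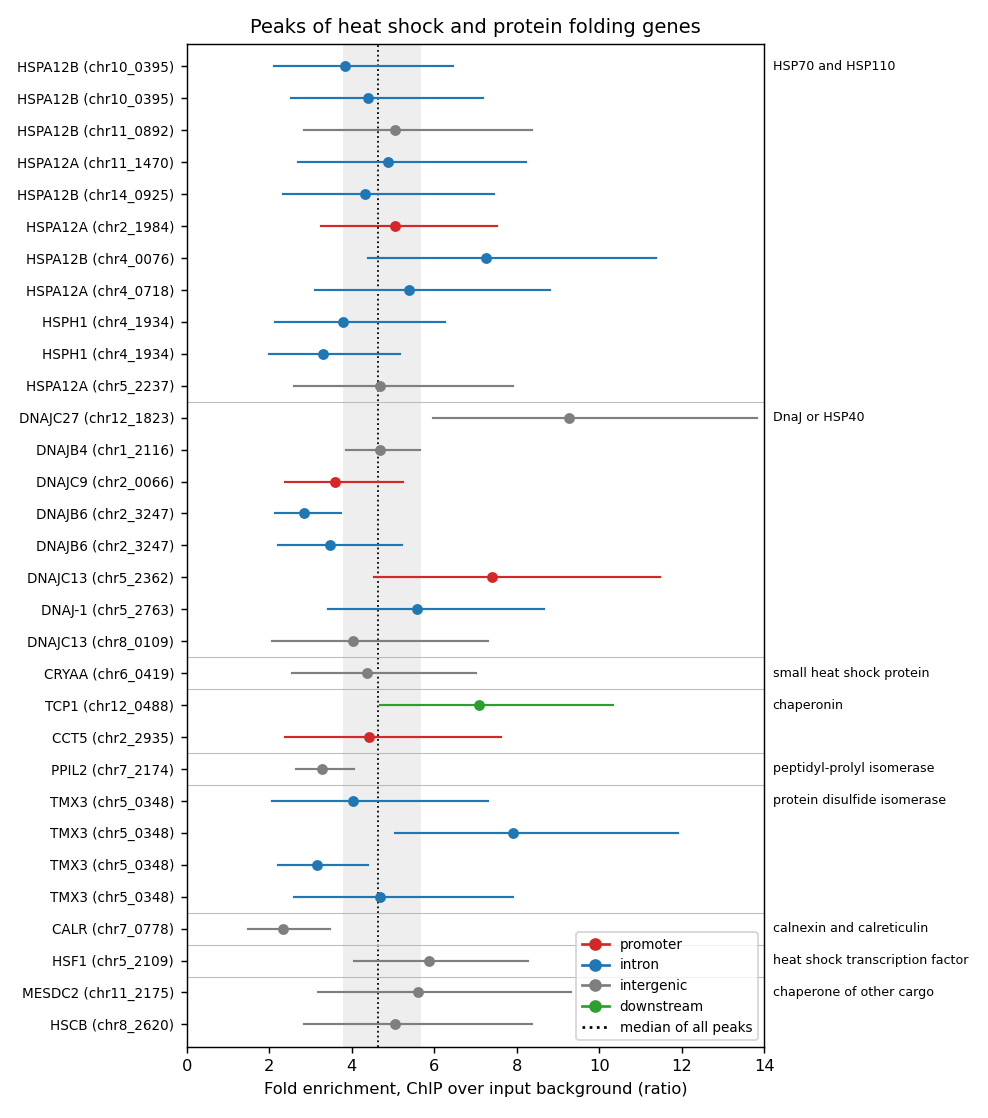
Fold enrichment of each of the 31 peaks (x axis, ratio of ChIP pileup to input background), named by the best match of the nearest gene with its identifier and grouped by family. Points are the authors' values coloured by region, horizontal lines are 95% Poisson intervals of the pileup, the dotted line is the median of all peaks (4.63) and the grey band their interquartile range (3.82 to 5.64). DNAJC27 stands highest at 9.27-fold and calreticulin lowest at 2.32-fold.

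HSP70 was represented mainly by HSPA12 genes. HSPA12A and HSPA12B are distant members of the HSP70 family and genes of this type form large families in oysters. Of the 9 HSP70 and HSP110 genes, 8 matched HSPA12 in Swiss-Prot, 4 of them HSPA12A and 4 HSPA12B. InterPro found an Hsp70 domain in 5 of these 8. KEGG gave none of the 8 a heat shock name and matched 5 of them to cullin 4. Their 9 peaks had a median fold of 4.87 and rested on 11 to 22 fragments each.

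The HSPA12 peak with the highest fold lay in an intron of a gene matching HSPA12B (M.coruscus_chr4_0076, chromosome 4, 3422103 to 3422500), 4693 bp downstream of the transcription start site (TSS). It had 17 fragments and a 7.26-fold enrichment (4.39 to 11.4), rank 298 of the 3465 peaks. The next fell inside an intron of an HSPA12A-like gene (M.coruscus_chr4_0718, chromosome 4, 28505689 to 28505905), 2276 bp downstream of the TSS, with 14 fragments and a 5.40-fold enrichment (3.11 to 8.81). The name of that gene is weaker, with a Swiss-Prot E value of 1e-13, no KEGG match and no Hsp70 domain in InterPro. The intervals of these 2 peaks overlap, so their order is not set by the counts.

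A promoter peak lay 2968 bp upstream of another gene matching HSPA12A (M.coruscus_chr2_1984, chromosome 2, 86854900 to 86855152). It had 22 fragments, the most of any HSPA12 peak, and a 5.05-fold enrichment (3.24 to 7.53). This summit was at the far edge of the promoter classes, which reach 3000 bp upstream. Upstream peaks outside the promoter classes were found for a gene matching HSPA12A (M.coruscus_chr5_2237, 4645 bp upstream, 4.68-fold) and a gene matching HSPA12B (M.coruscus_chr11_0892, 14433 bp upstream, 5.04-fold).

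Intron peaks of 3 further HSPA12 genes had lower folds or weaker names. A gene matching HSPA12B (M.coruscus_chr10_0395) had an intron peak 977 bp downstream of its TSS with 14 fragments and 4.39-fold, and another 6099 bp downstream with 12 fragments and 3.82-fold. Their intervals, 2.53 to 7.17 and 2.12 to 6.46, overlap almost fully. InterPro named no Hsp70 domain in this gene. A gene matching HSPA12B (M.coruscus_chr14_0925) had 1 intron peak, 3761 bp downstream, at 4.32-fold. The intron peak of M.coruscus_chr11_1470, 34103 bp downstream and 4.87-fold, belongs to a gene whose HSPA12A match was weak (E value 2e-07) and whose InterPro domain was that of mitochondria-eating protein.

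The only other gene of this family matched HSPH1 in Swiss-Prot (M.coruscus_chr4_1934), an HSP110 protein that helps HSP70 to exchange its nucleotide and holds unfolded proteins in solution. KEGG matched this gene to heat shock 70 kDa protein 4, and both matches had an E value of 0.0. It had 2 intron peaks, and these were low. One lay 1856 bp downstream of the TSS (chromosome 4, 81325175 to 81325539) with 17 fragments and 3.30-fold (2.0 to 5.18). The other lay 11909 bp downstream (81315210 to 81315406) with 13 fragments and 3.78-fold (2.14 to 6.27). Classical HSP70 genes, those matching HSPA1, HSPA5, HSPA8 or HSPA9, were not named by either database among the 25 genes. Names that hold none of the 12 words were not searched for.

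DnaJ genes held the highest and some of the lowest folds. The highest of all 31 was an intergenic peak 5915 bp upstream of a gene matching DNAJC27 (M.coruscus_chr12_1823, chromosome 12, 80963835 to 80964129). It had 22 fragments over the lowest level of background in the table, a 9.27-fold enrichment (5.96 to 13.8) and a −log10 q of 14.7, and its fold ranked 116 of 3465. DNAJC27 joins a J domain to a Rab-type small GTPase, and InterPro named both domains in the mussel gene. Its neighbour in the peak list was 24849 bp away, nearest to a gene matching exostosin-1b, with 3.18-fold.

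The peak with the most fragments, 108, lay 5874 bp upstream of a gene matching DNAJB4 (M.coruscus_chr1_2116, chromosome 1, 93029877 to 93030463), a co-chaperone that stimulates HSP70. It also had the highest −log10 q of the 31, 33.8, but its fold was only 4.69 (3.85 to 5.65), because the background beneath it, with 1 added, was 23.2 fragments. By pileup it ranked 52 of 3465 and by fold 1657. KEGG also calls the gene DNAJB4 but places it in its group for DNAJB5. A gene matching DNAJB6 (M.coruscus_chr2_3247), which keeps aggregation-prone proteins soluble, had intron peaks 5961 and 9049 bp downstream with 50 and 21 fragments. Their folds, 2.85 (2.13 to 3.74) and 3.47 (2.21 to 5.22), were the 2 lowest of the DnaJ family. A gene matching the fly protein DnaJ-1 (M.coruscus_chr5_2763) had the longest peak of the list, 754 bp, in an intron 16962 bp downstream, with 18 fragments and 5.59-fold.

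The 2 peaks nearest to a TSS on its upstream side belonged to genes with doubtful names. One lay 617 bp upstream of a gene matching DNAJC9 (M.coruscus_chr2_0066, chromosome 2, 2842137 to 2842452), a J protein that in human cells also handles histones. It had 25 fragments and 3.60-fold (2.38 to 5.24), but the match was weak (E value 7e-10) and InterPro was empty for this gene. The other lay 963 bp upstream of a gene that KEGG matches to DNAJC13 (M.coruscus_chr5_2362, chromosome 5, 103471117 to 103471378), a DnaJ protein of endosomes, with 18 fragments and 7.41-fold (4.55 to 11.5). Swiss-Prot calls it a polymerase of transposon BS, and InterPro found a reverse transcriptase and no J domain. The other gene with that KEGG name (M.coruscus_chr8_0109) was of the same kind, matched the mobile element jockey in Swiss-Prot, and had a peak of 9 fragments and 4.03-fold, 9372 bp from its TSS and beyond the gene end. Both genes belong to the list by their KEGG word only.

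The chaperonin TRiC, a ring of related subunits that folds actin and tubulin, was represented by genes of 2 subunits with strong matches. The alpha subunit gene TCP1 (M.coruscus_chr12_0488) had a peak just beyond its end, 64324 bp from the TSS (chromosome 12, 21501595 to 21501810), with 25 fragments and 7.09-fold (4.68 to 10.3). The epsilon subunit gene CCT5 (M.coruscus_chr2_2935) had a promoter peak 2708 bp upstream (chromosome 2, 130133019 to 130133234) with 11 fragments and 4.41-fold (2.39 to 7.61). Both peaks were 216 bp long. In the alpha subunit gene InterPro also named a MAM domain behind the chaperonin domain.

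At the members matching TMX3, calreticulin and MESD, all proteins of the secretory pathway, peaks lay deep inside or beyond the genes. A gene matching TMX3 (M.coruscus_chr5_0348), a membrane-bound disulfide isomerase of the endoplasmic reticulum, had 4 intron peaks, more than any other gene of the list. They lay 142356, 196077, 206474 and 216076 bp downstream of the TSS on the minus strand of chromosome 5, with 12, 33, 21 and 9 fragments and folds of 4.68, 3.15, 7.92 and 4.03. The peak at 206474 bp (14306292 to 14306500) had an interval of 5.04 to 11.9, and that of its neighbour at 196077 bp, which had more fragments over a background, with 1 added, of 10.8, was 2.20 to 4.39, so these intervals did not overlap. This gene model holds a reverse transcriptase before the thioredoxin-like domain, and the distances are counted from its start as the authors' annotation gives it.

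A gene that KEGG alone matches to calreticulin (M.coruscus_chr7_0778, E value 7e-24), the calcium-binding lectin chaperone, has a doubtful name. Swiss-Prot gave it no match and InterPro named no calreticulin domain. This gene was nearest to the lowest peak of the list, 29332 bp from the TSS and beyond the gene end. That peak had 22 fragments over a background, with 1 added, of 9.90. Its fold enrichment was 2.32 (1.49 to 3.47) and its −log10 q 1.38, close to the lowest value in the table, 1.32. A gene matching MESD (M.coruscus_chr11_2175), which folds receptors of the LDL receptor family, was nearest to a peak 18672 bp from the TSS, also beyond the gene end, with 13 fragments and 5.61-fold (3.17 to 9.30). KEGG matched this gene to a subunit of the proteasome, while InterPro named the MESD domain.

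**Figure D2:**
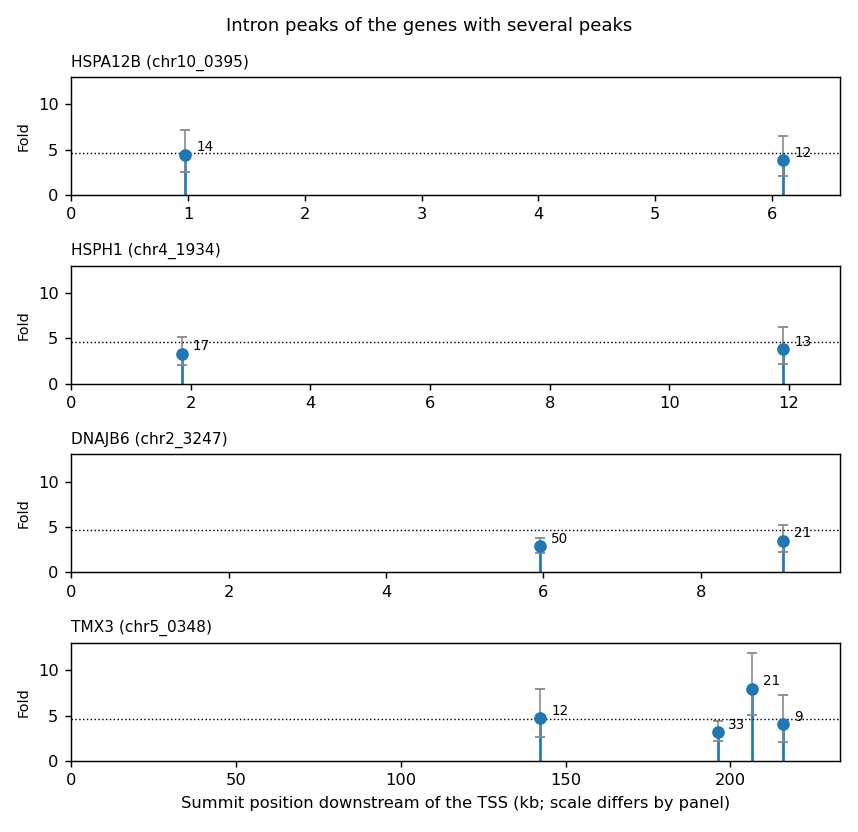
Fold enrichment (y axis, ratio) against the distance of the summit downstream of the TSS (x axis, kb, with its own scale in each panel) for the 4 genes with more than 1 peak, all in introns. Points are the authors' folds, bars are 95% Poisson intervals of the pileup, the number beside each point is the pileup in fragments and the dotted line is the median fold of all peaks. In TMX3 the 7.92-fold peak stands above its neighbour of 3.15-fold, whereas in the other 3 genes the intervals of the 2 peaks overlap.

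Among the remaining genes was heat shock factor itself. A gene matching HSF1 (M.coruscus_chr5_2109), with an HSF-type DNA-binding domain in InterPro, had a peak 7789 bp upstream of its TSS (chromosome 5, 92260076 to 92260623). It was 548 bp long, had 31 fragments and a 5.87-fold enrichment (4.05 to 8.26), and its −log10 q was 12.3. A gene matching HSCB (M.coruscus_chr8_2620), the mitochondrial J protein that passes iron-sulfur clusters on, was nearest to a peak 8716 bp from the TSS with 13 fragments and 5.04-fold. A gene with 2 Hsp20 regions in InterPro, which KEGG matches to alpha-crystallin A and Swiss-Prot to the major egg antigen of a blood fluke (M.coruscus_chr6_0419), had a peak 13352 bp upstream of 15 fragments and 4.36-fold. The gene matching PPIL2 (M.coruscus_chr7_2174), a cyclophilin with a U-box, was nearest to the peak with the second most fragments, 87, but over the highest background of the list, 26.8 with 1 added, so that its fold was 3.28 (2.64 to 4.04).

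Pileup and fold thus ranked these peaks differently. The 3 peaks with the most fragments, at DNAJB4, PPIL2 and DNAJB6, all lay among the 10% of peaks with the highest background (10.2% with ties), with folds of 2.85 to 4.69. These held 4 of the 31, the fourth being the TMX3 peak of 33 fragments. The lowest level of background in the table was found under 24.5% of all peaks and under 4 of the 31, at HSPA12B (M.coruscus_chr4_0076), DNAJC27, DNAJC13 (M.coruscus_chr8_0109) and TMX3. At this level, peaks with the same pileup have the same fold, which is why DNAJC13 and TMX3 each had a peak of 9 fragments and 4.03-fold. Background and fold were inversely related across the 31 peaks (Spearman's rho −0.54) and across all 3465 (−0.48). The fold is computed with this background as its denominator, and peaks of 1 gene are not independent.

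**Figure D3:**
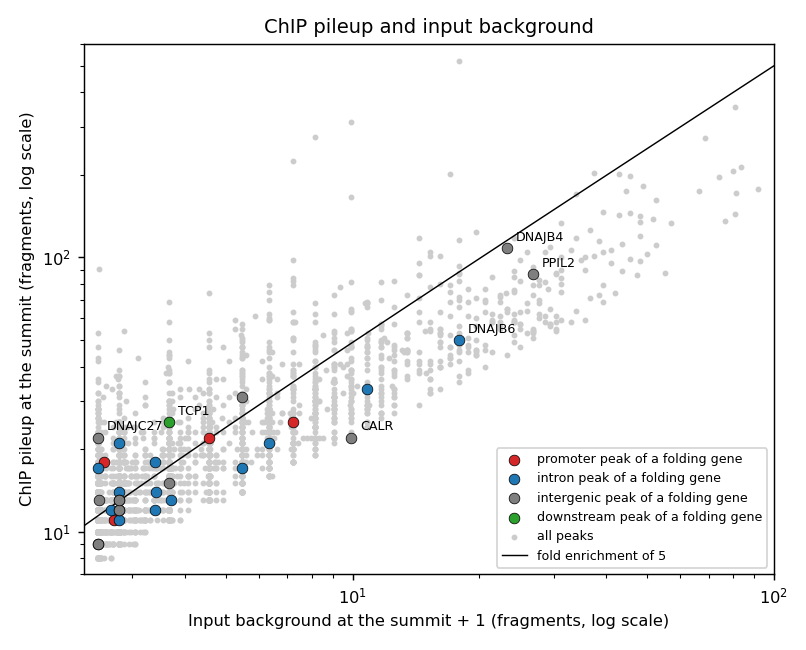
ChIP pileup at the summit (y axis, fragments, log scale) against input background with 1 added (x axis, fragments, log scale). Large points are the 31 peaks, coloured by region, small grey points are all peaks (9 lie outside the axes) and the line marks a fold of 5. DNAJB4 and PPIL2 stand out by pileup, with 108 and 87 fragments, but lie below the line, whereas DNAJC27 lies far above it with 22.

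By position, most of the 31 peaks lay in introns or between genes, as did most of the 3465 and most of the 2612 other peaks whose gene has a Swiss-Prot or KEGG name. Introns held 15 peaks (48.4%, Wilson 95% interval 32.0% to 65.2%, beside 44.9% of all peaks and 52.5% of the other named peaks). Intergenic regions held 11 (35.5%, 21.1% to 53.1%, beside 40.5% and 33.3%), of which 6 were upstream of the gene and 5 beyond its end. These intervals treat the peaks as independent, although all peaks of the 4 genes with several lay in introns. With only the highest peak of each gene, introns held 36.0% and intergenic regions 44.0%. Without the TMX3 gene each held 40.7%. Which class was larger thus depended on genes with several peaks. The promoter classes held 4 (12.9%, 5.13% to 28.9%, beside 7.24% and 6.47%), namely those of DNAJC9, DNAJC13, HSPA12A and CCT5. Of these 4, only HSPA12A and CCT5 have an InterPro domain of their family. The downstream class held 1, at TCP1, and exons held 0 of 31, which allows a share of up to 9.68% by 3 counts of 31 and 11.0% by the Wilson interval, beside 5.25% of all peaks. The summit was within 10000 bp of the TSS for 19 of the 31 (61.3%, 43.8% to 76.3%), beside 36.5% of all peaks and 34.3% of the other named peaks. This share was picked out after the distances were seen and was not tested, and the median distance was 8716 bp beside 15384 bp. No relation of fold to distance was apparent over the 31 peaks (Spearman's rho −0.02) or over all peaks (0.01).

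**Figure D4:**
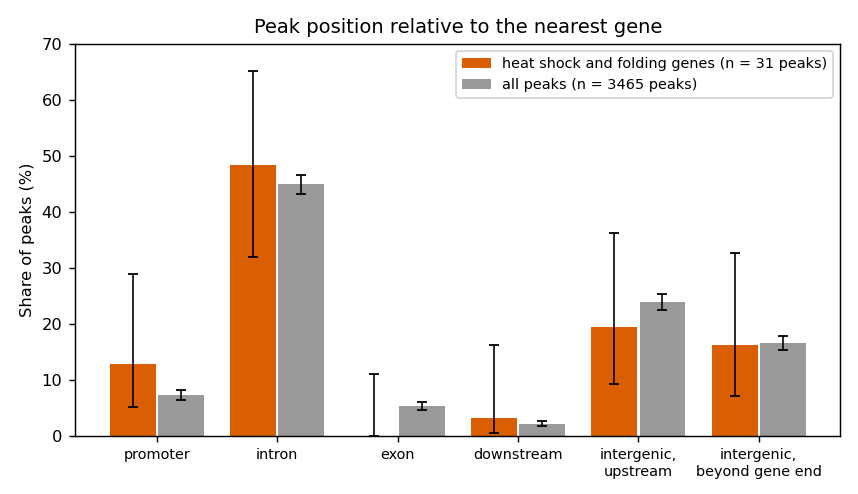
Share of peaks (y axis, %) in each region class (x axis) for the 31 peaks of heat shock and folding genes (orange) and all 3465 peaks (grey). Bars start at 0 and lines are Wilson 95% intervals, which treat the peaks as independent. For the 31 peaks they are wide, as in promoters (5.13% to 28.9%).

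**Figure D5:**
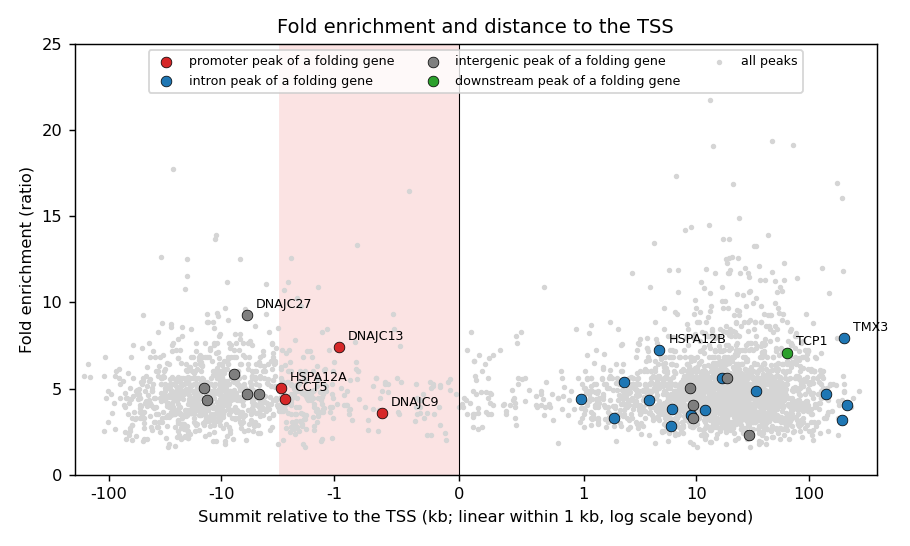
Fold enrichment (y axis, ratio) against the summit's distance from the TSS (x axis, kb, negative upstream, linear within 1 kb and log scale beyond). Large points are the 31 peaks, grey points all peaks (5 lie outside the axes) and the shaded strip the 3 kb upstream of the TSS, with 4 promoter peaks of 3.60-fold to 7.41-fold.

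The genes lay on 11 of the 14 chromosomes and none on chromosomes 3, 9 and 13. Chromosome 5 held 8 of the peaks, 2.91% of its 275, beside 31 of 3465 in the whole series. Of these 8 peaks, 4 belonged to the TMX3 gene alone. The 5 genes on this chromosome were those matching TMX3, HSF1, HSPA12A, DNAJC13 and DnaJ-1. Chromosome 2 held 5 peaks and chromosome 1, which had the most peaks of all at 412, held 1. Most of these genes had a single peak, as did most of all genes with a peak. Of the 25 genes, 21 had 1 peak and 4 had several (16.0%, beside 21.8% of all genes with a peak). The distance to the nearest other peak, of any gene, varied widely and was not compared with that of all peaks. It was largest at PPIL2, 1447538 bp, and at the alpha-crystallin gene, 1019793 bp. It was 15320 bp at CCT5 and smallest, 3088 bp, between the 2 peaks of DNAJB6.

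Other genes of protein quality control, which the words do not cover, had peaks in introns and between genes. A mixed list of words, for quality control of the endoplasmic reticulum and for co-factors that need not act there, found 5 peaks at 5 genes. Of these peaks, 4 lay in introns and 1 between genes, and the median fold of the mixed list was 6.27. Some of the 5 genes, as in the proteasome list, match by a word in 1 database only. The highest was at a gene matching EDEM3 (M.coruscus_chr2_0083, 7.14-fold, intron), a mannosidase that marks misfolded glycoproteins for removal. The next was at a gene matching sulfhydryl oxidase QSOX1 (M.coruscus_chr2_1919, 6.45-fold, intron), which forms disulfide bonds, but KEGG matched this gene to tetraspanin-18. The 6.27-fold peak was at a gene that KEGG matches to STUB1 and Swiss-Prot to TTC12. Genes matching sacsin had peaks of 4.39-fold (M.coruscus_chr8_2599) and, over a background among the highest 10%, 1.93-fold (M.coruscus_chr8_2587). Of these 5 peaks, 3 reached 5-fold, as did 4 of 17 in the proteasome list, beside 39.8% of all peaks. The proteasome list comprised 17 peaks at 8 genes, with 9 peaks inside introns, 8 between genes and a median fold of 3.96. Of them 7, all of 2.06-fold to 4.01-fold, were nearest to M.coruscus_chr1_3928, which Swiss-Prot matches to a vitelline membrane protein and KEGG alone to a proteasome subunit, and 6 of these 7 were among the 10% of peaks with the highest background. Promoters held 0 of the 5 and 0 of the 17 peaks, with Wilson upper limits of 43.4% and 18.4%, so that neither can be told from the 7.24% of all peaks. The gene matching the deubiquitinating subunit of the proteasome lid, PSMD14 (M.coruscus_chr12_1691), had intron peaks of 7.92-fold and 3.16-fold.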

How the data were processed

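The deposited table is the authors' list of peaks from 1 ChIP library against 1 input library. Per the labels and the methods of the study, reads were trimmed with Trimmomatic 0.36, checked with FastQC, aligned uniquely with Bowtie2 2.5.1 to an unpublished *M. coruscus* genome, and peaks were called with MACS3 3.0.0a7. The sources used here do not state how duplicates were handled or which q threshold was set. Library sizes are given in the paper and were not used, so depth is seen here only as pileup. The paper's read table has several lines per library with equal read numbers, taken here as the mates of paired reads and not as replicates. The authors deposited the pileup signal, the fold enrichment as a ratio, and p and q as −log10 values. Their region classes, nearest genes, distances in bp and database matches, which are matches in other species, were taken as given. Positions are 1-based, since length equals end minus start plus 1.

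Peaks were chosen by 12 words in the Swiss-Prot and KEGG text. The members and lists were chosen with earlier results of these data known. Background plus 1 was computed as (pileup + 1) / fold enrichment. Families were assigned by words, Swiss-Prot before KEGG. The named genes are those with a promoter peak, with several peaks or with a summit within 1000 bp of the TSS, the 2 highest folds of each family, the lowest fold, and the 5 highest folds and pileups. The other members were named as well, so that all 25 are accounted for. The InterPro check was chosen after the table was seen. With 1 library per group no test was made. Lists are described by counts, medians and Wilson 95% intervals, single peaks by exact Poisson intervals. The intervals were tested on simulated data without selection. The real peaks were kept because they passed a threshold, so that test does not cover the effect of this selection. Alternatives were Swiss-Prot or KEGG names alone or together, stricter thresholds (−log10 q 3 or 4-fold), leaving out the 10% of peaks with the highest background or the chaperones of other cargo and heat shock factors, 1 peak per gene, and other reaches of the promoter. No sequence is shown: the reference gene table at hand is of another assembly and matched 0 of the 25 identifiers. Tables were made in Python 3.11.15 with pandas 2.3.3, intervals with SciPy 1.17.1 on NumPy 2.4.6, and figures with Matplotlib 3.10.9.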

Additional observations from a re-analysis of the deposited data

Results flagged for a closer look

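A word of the list stood only in the TrEMBL or InterPro text of 5 further peaks, which the list by Swiss-Prot and KEGG leaves out. Those databases were not used to choose genes. Each of these peaks rests on more than 3 fragments, as does every peak of the authors' list, where the lowest pileup is 8. A peak in an intron of a gene matching SEC63 (M.coruscus_chr9_0629), the J protein that helps to bring proteins into the endoplasmic reticulum, had 23 fragments and 9.67-fold, above each of the 31. A peak 33420 bp from the TSS of a gene that TrEMBL alone matches to DNAJC14 (M.coruscus_chr1_1411) had 63 fragments and 8.85-fold. The others had 4.73-fold at SPT16 (M.coruscus_chr5_0222), a histone chaperone, 4.44-fold at a gene that TrEMBL alone matches to HSPA12B (M.coruscus_chr5_2569) and 4.39-fold at sacsin (M.coruscus_chr8_2599), which has a DnaJ domain.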

How the results depend on the processing

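Of 106 recomputed values, 100 stayed within the interval of the reported value or, for counts, within 1.5 times of it. The other 6 are counts. With a word required in both Swiss-Prot and KEGG there were 17 peaks of 12 genes, 6 of them at 5-fold or more. With KEGG alone there were 16 genes and 7 such peaks, and at a threshold of 4-fold 22 of the 31 peaks passed. The promoter share ran from 6.45%, where only the class within 1000 bp upstream was counted, to 16.7%. That narrower class held 2.42% of all peaks. The intron share ran from 36.0%, with 1 peak per gene, to 55.6%. The median fold ran from 4.36 to 5.04 and the share within 10000 bp of the TSS from 56.5% to 70.4%. Alternatives on InterPro domains, TrEMBL names, the gene with the most peaks and the share within 10000 bp were chosen after seeing the data. No paired analysis was possible because each group has 1 library. Most of these peaks have 9 to 25 fragments. For 24 of the 31 the interval of the fold includes the median of all peaks, a count not made for the whole series.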
